A study of Mus musculus with 12 samples.

Results

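A set of 9 genes of midbrain GABAergic neurons was followed in RNA from the laser-microdissected substantia nigra pars compacta (SNpc) of 12 mice: Gad1, Gad2, Slc32a1, Pvalb, Gata2, Gata3, Tal1, Sox14 and Six3. They were chosen by name, with earlier results of these data known, from the 54193 genes that the files hold. The groups were OF1-En1+/-, OF1 WT, C57-En1+/- and C57 WT, with 3 mice of 1 week in each and 1 library per mouse. All were labelled male, a label that is in doubt for C57-En1+/- mouse C572, as given below. OF1 is the outbred SwissOF1 stock and C57 the inbred C57Bl/6j strain. En1+/- mice carry 1 intact copy of Engrailed 1, a homeobox gene of midbrain dopaminergic neurons, the other copy being disrupted by a LacZ insertion, and WT mice carry both. C57-En1+/- mice descend from OF1-En1+/- mice by repeated backcrossing to C57. The comparisons ask whether En1 hemizygosity changes these genes in either strain, whether the strains differ in them, and whether the genotype difference depends on strain.

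The reticular nigra lies just below the SNpc, and its GABAergic neurons fire tonically and carry the output of the basal ganglia to thalamus and brainstem. A GABAergic neuron makes its transmitter from glutamate with the glutamate decarboxylases encoded by Gad1 and Gad2, and loads it into vesicles with the transporter encoded by Slc32a1. Pvalb encodes parvalbumin, a calcium-binding protein of fast-firing neurons. Gata2, Gata3 and Tal1 encode transcription factors that turn midbrain precursors of the mouse towards a GABAergic fate, Sox14 encodes a transcription factor of GABAergic neurons of the thalamus and of the adjacent midbrain, and Six3 encodes a homeobox factor of the early forebrain.

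The stretches before the starts of Gad1, Gad2 and Slc32a1 are shown because these genes, which encode the steps of GABA synthesis and packaging, varied together over the libraries. Each is the 250 bases before the canonical GENCODE transcript, read 5′ to 3′ from GRCm39, and lies on the plus strand of chromosome 2: chr2:70391353-70391602 for Gad1, chr2:22511612-22511861 for Gad2 and chr2:158452355-158452604 for Slc32a1. Capitals mark matches, on either strand, to CANNTG, the E-box of basic helix-loop-helix factors such as the product of Tal1, and to GATAA, the core of a GATA factor site.
Gad1: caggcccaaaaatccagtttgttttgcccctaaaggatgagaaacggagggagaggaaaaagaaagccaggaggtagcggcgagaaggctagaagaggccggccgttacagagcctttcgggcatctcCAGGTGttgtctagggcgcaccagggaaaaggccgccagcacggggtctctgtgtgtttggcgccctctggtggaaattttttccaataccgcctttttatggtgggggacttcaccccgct
Gad2: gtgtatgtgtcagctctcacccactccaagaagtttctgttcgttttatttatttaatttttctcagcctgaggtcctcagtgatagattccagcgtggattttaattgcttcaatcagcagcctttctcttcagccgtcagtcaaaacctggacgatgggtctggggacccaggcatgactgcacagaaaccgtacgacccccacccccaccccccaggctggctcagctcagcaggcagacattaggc
Slc32a1: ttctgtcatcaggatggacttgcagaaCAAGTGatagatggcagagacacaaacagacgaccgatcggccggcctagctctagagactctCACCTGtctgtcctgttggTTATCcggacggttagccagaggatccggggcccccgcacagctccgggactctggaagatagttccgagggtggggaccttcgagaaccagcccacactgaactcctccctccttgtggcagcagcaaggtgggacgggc
Gad1 held 1 E-box, Slc32a1 held 2 E-boxes and 1 GATAA (read as TTATC on the strand shown), and Gad2 held no match to either. Over the 9 genes, 5 stretches held an E-box, 1 held a GATAA, 1 held ACAAT (the core of a Sox factor site) and 0 held TAATTA (a homeodomain site). Of 21770 stretches of this length before protein-coding genes, 64.8% held an E-box, 22.4% a GATAA, 27.0% ACAAT and 5.18% TAATTA. The matches did not overlap one another. These are matches of letters only, and binding was not measured. The Slc32a1 stretch also holds an exon of the antisense gene Gm14204.

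The libraries held 13538864 to 168741283 estimated reads. Values are normalized counts unless another unit is named: the estimated reads of a gene, summed over its transcripts, divided by a library factor from TMM (trimmed mean of M values) scaled so that the factors average 1 on the log scale. edgeR's quasi-likelihood test was fitted to the 18017 genes that averaged 10 or more normalized counts over the 12 libraries, and its adjusted p (Benjamini-Hochberg over these genes) counted as past the threshold under 0.05. All 9 genes were among those tested. The libraries differed in their neurons. The summed level of 10 dopaminergic markers was 391369 in SW22 (OF1-En1+/-) and 622918 in C572S (C57 WT). It was 1761 to 8348 in the other 10 libraries. Of these markers, Slc6a3 was at 205403 in SW22 and 350647 in C572S, and at 4.18 to 3230 elsewhere. Most libraries thus held few dopaminergic transcripts, although all were dissected as SNpc. En1 itself was at 691 in SW22, at 1071 in C572S and at most 15.2 elsewhere, so it gave no check of the genotype labels. C57-En1+/- mouse C572 had 1330.5 of Xist, which is transcribed from an inactive X, and 0 of the Y-linked Ddx3y, although it is labelled male; the other 11 libraries had at most 34.9 of Xist and at least 749 of Ddx3y. Reads carry no strand, and in bulk tissue fewer cells of a type and less RNA per cell cannot be told apart.

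Levels between genes were compared in TPM, a share of all transcripts that corrects for transcript length. The median over the 12 libraries was 184 TPM for Gad1 and 62.8 TPM for Gad2, followed by 4.36 TPM for Slc32a1 and 3.45 TPM for Pvalb. The transcription factors lay lower, at median levels of 0.773 TPM for Gata2, 0.715 TPM for Six3, 0.287 TPM for Sox14, 0.116 TPM for Tal1 and 0.0849 TPM for Gata3. Gad1 and Gad2 were thus abundant in most libraries, while Gata3 and Sox14 had under 10 estimated reads in 7 of the 12 libraries and Tal1 in 6.

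Gad1, on chromosome 2 from 70383416 to 70432372 of GRCm39 (ENSMUSG00000070880), had normalized counts of 26724, 20239 and 13695 in OF1-En1+/- mice SW21, SW22 and SWB. In OF1 WT animals SW31, SW7 and SWG it had 538, 17053 and 1454. The OF1-En1+/- libraries lay close together, whereas SW31 lay 31.7-fold below SW7 within OF1 WT, so the groups overlapped through SW7. In C57-En1+/- mice C5713, C572 and C575 Gad1 had 18159.6, 1752 and 46911, and in C57 WT animals C5710, C572S and C5743 it had 10586, 13202 and 3654. C575 was the highest and C572 among the lowest of the 12, within 1 group. The mean was 20219 ± 6515 in OF1-En1+/- and 6349 ± 9282 in OF1 WT (SD, n = 3 each), and the log2 fold change of 1.67 ± 1.27 (SE) did not pass edgeR's test (adjusted p = 0.729). In C57 mice the mean was 22274 ± 22859 in C57-En1+/- and 9147 ± 4933 in C57 WT (SD, n = 3 each), with a log2 fold change of 1.28 ± 1.25 (SE, edgeR adjusted p = 0.797).

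Gad2, on chromosome 2 from 22511862 to 22583886 (ENSMUSG00000026787), had 37597, 6769 and 9756 in OF1-En1+/- mice SW21, SW22 and SWB, against 514, 8948 and 597 in OF1 WT animals SW31, SW7 and SWG. It had 17527, 2939 and 12491 in C57-En1+/- mice C5713, C572 and C575, against 10845, 15505 and 1786 in C57 WT animals C5710, C572S and C5743. The libraries low in Gad1 were also the low ones here. The log2 fold change was 2.43 ± 1.27 (SE) between OF1-En1+/- and OF1 WT mice (edgeR adjusted p = 0.596) and 0.23 ± 1.205 (SE) between C57-En1+/- and C57 WT animals (edgeR adjusted p = 0.973). The ratio of Gad2 to Gad1 in TPM was itself not constant: it was lowest in C575, at 0.142, and highest in C572, at 0.921, both C57-En1+/- mice.

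Slc32a1, on chromosome 2 from 158452605 to 158464883 (ENSMUSG00000037771), had 539, 219 and 289 in OF1-En1+/- mice SW21, SW22 and SWB, against 9.44, 596 and 35.5 in OF1 WT animals SW31, SW7 and SWG. It had 684, 82.6 and 516 in C57-En1+/- mice C5713, C572 and C575, against 287, 273 and 45.4 in C57 WT animals C5710, C572S and C5743. Within OF1 WT the highest library was 63.2-fold above the lowest. The log2 fold change was 0.70 ± 1.21 (SE) between OF1-En1+/- and OF1 WT mice (edgeR adjusted p = 0.907) and 1.08 ± 1.21 (SE) between C57-En1+/- and C57 WT animals (edgeR adjusted p = 0.831). The antisense gene Gm14204, whose reads cannot be told from those of Slc32a1 where both overlap, had a mean normalized count of 351.

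**Figure D1:**
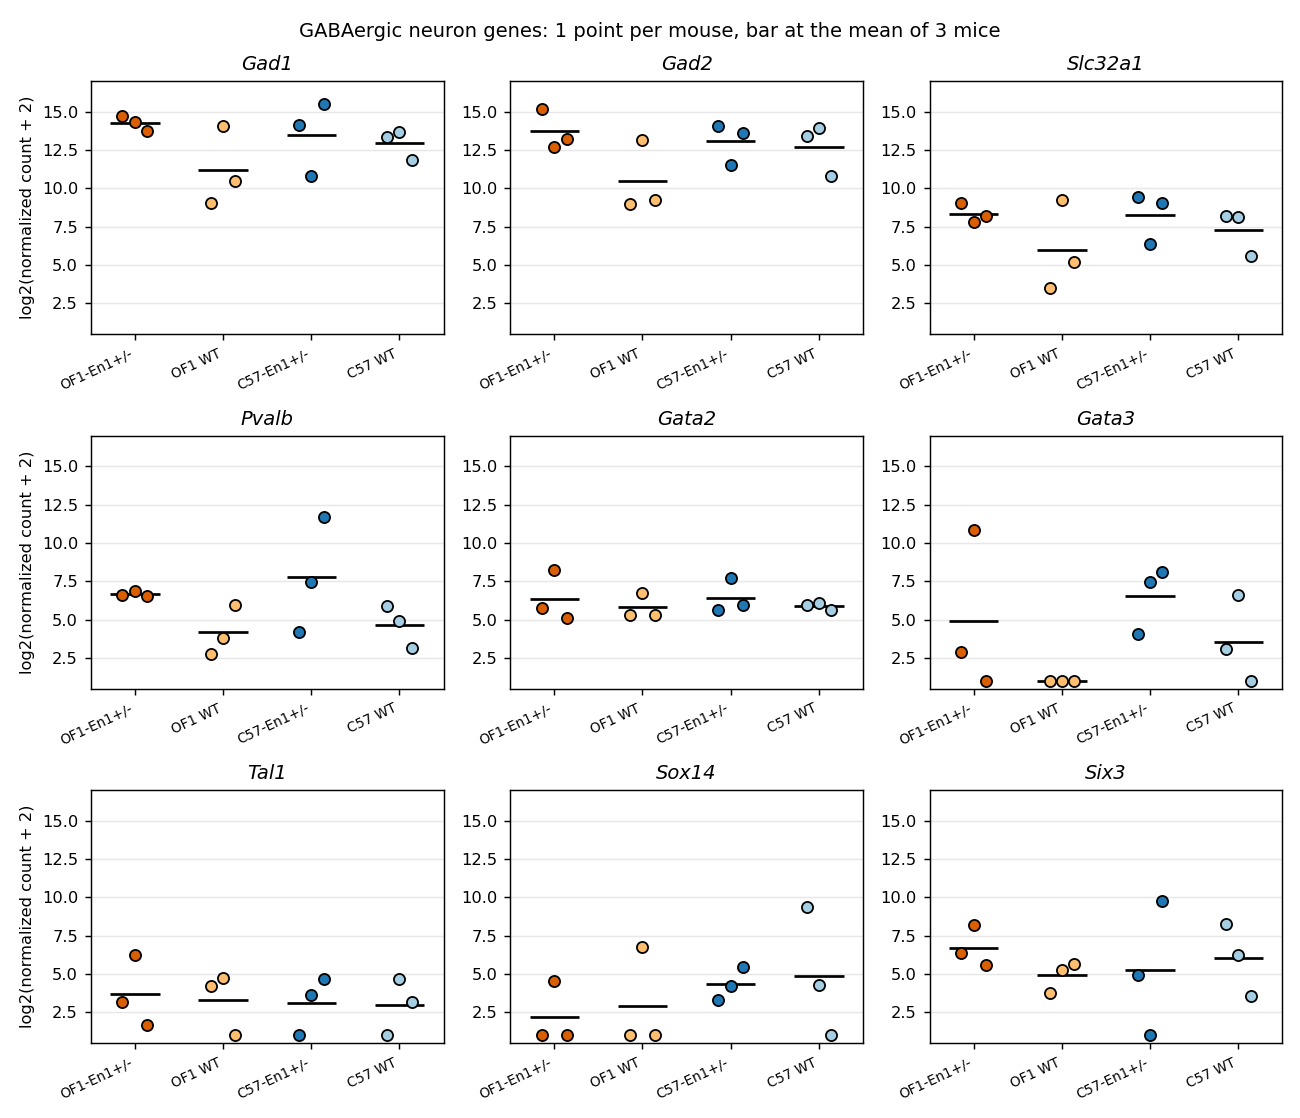
Levels of the 9 genes as log2(normalized count + 2), 1 point per mouse in each of the 4 groups, with a bar at the mean of the 3 log2 values. The 3 OF1-En1+/- mice lie above the 3 OF1 WT mice for Pvalb alone, and the points of Gad1, Gad2 and Slc32a1 in OF1 WT mice split into SW7 at 17053, 8948 and 596 normalized counts and 2 low libraries.

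The 3 genes of GABA synthesis and packaging varied together. Over the 12 libraries, which share the same scaling, Pearson's r of the log2 levels was 0.91 between Gad1 and Gad2, 0.94 between Gad1 and Slc32a1 and 0.94 between Gad2 and Slc32a1, with Spearman's rho of 0.76, 0.79 and 0.83. Without the 2 libraries farthest from the median of the first gene named, r was 0.78, 0.84 and 0.88. Spearman's coefficient was 0.77, 0.71 and 0.83 within the 6 OF1 libraries and 0.77, 0.83 and 0.83 within the 6 C57 libraries. These are descriptions of 12 libraries and no test was made of them. Over all 12 libraries Gad1 had lower correlations with the other 6 genes, at Pearson's r of 0.69 with Six3, 0.47 with Pvalb, 0.40 with Sox14, 0.38 with Gata3, 0.17 with Tal1 and 0.15 with Gata2. This order did not hold in every subset. Without the 2 farthest libraries r with Six3 was 0.84. Within the 6 OF1 libraries Spearman's coefficient of Gad1 was 0.78 with Gata3, 0.77 with Pvalb and 0.71 with Six3, and within the 6 C57 libraries it was 0.37, 0.20 and 0.77.

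The same 4 libraries were the lowest of the 12 in all 3 genes: OF1 WT animals SW31 and SWG, C57-En1+/- mouse C572 and C57 WT mouse C5743. Of these, SW31, SWG and C5743 were the highest of the 12 in Slc17a6, the vesicular glutamate transporter of subcortical neurons, at 23412, 27352 and 27933 normalized counts, and in Calb2 (calretinin), at 42353, 44284 and 36943. The summed level of the 9 subthalamic and hypothalamic glutamatergic markers was 71907, 81774 and 77201 there, against 1553 to 25100 in the other 9 libraries. By group that sum ran from 1553 to 11240 in OF1-En1+/-, from 16830 to 81774 in OF1 WT, from 3821 to 25100 in C57-En1+/- and from 7731 to 77201 in C57 WT.

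The other low library, C572, had 2784 of Slc17a6, the second lowest level of the 12. It had 4093 of Chat, the enzyme that makes acetylcholine, the highest of the 12. Its summed oligodendrocyte markers were also the highest, at 195962, against 10698 to 112812 in the others. The sum of the 6 oligodendrocyte markers was second highest in SW21, at 112812, where Gad1 was also second highest, at 26724. It was 12956 in C5743, 1 of the 4 libraries low in Gad1. In C575, where Gad1 was highest at 46911, the sum was lowest, at 10698. By group it ran from 54449 to 112812 in OF1-En1+/- mice and from 20452 to 42103 in OF1 WT mice, which did not overlap, and from 10698 to 195962 in C57-En1+/- and from 12956 to 34292 in C57 WT mice. The part of these other cells in the differences between groups was not tested.

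**Figure D2:**
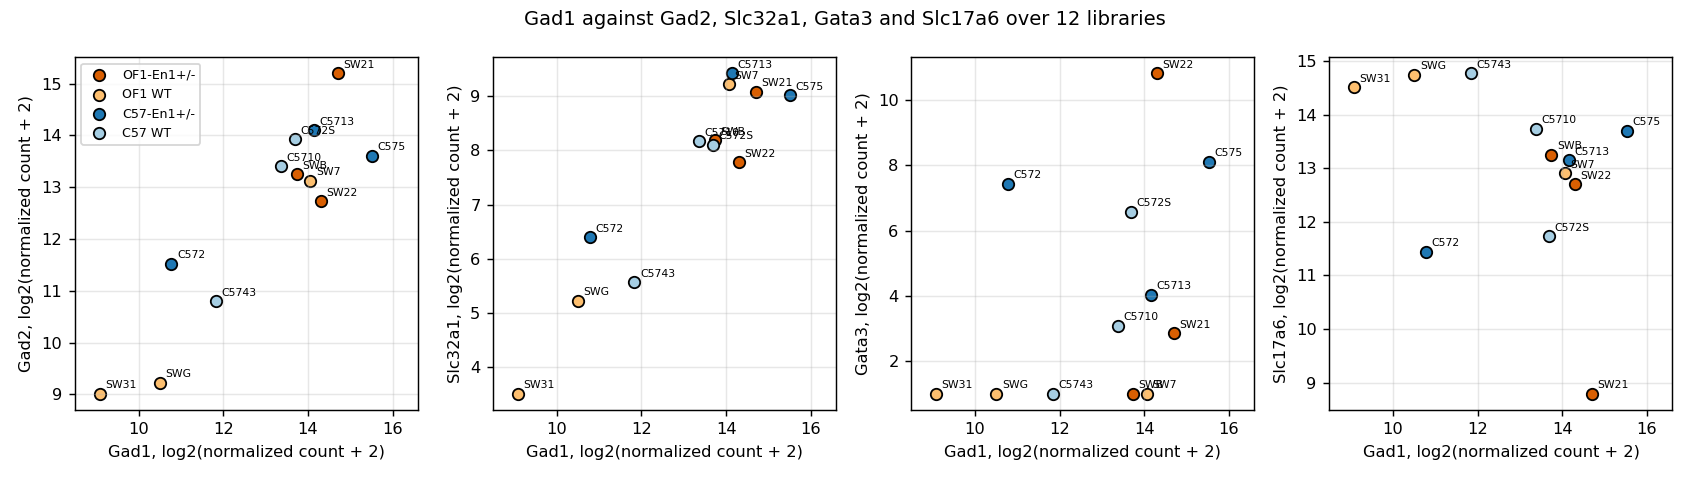
Each point is 1 of 12 libraries, labelled by mouse and coloured by group, with Gad1 on the horizontal axis and Gad2, Slc32a1, Gata3 or Slc17a6 on the vertical axis, all as log2(normalized count + 2). Gad2 and Slc32a1 follow Gad1 (r = 0.91 and 0.94 over the 12 libraries), Gata3 has an r of 0.38 with Gad1, and Slc17a6 is highest in SW31, SWG and C5743, which are low in Gad1.

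Relative to neurons as a whole the spread remained. Gad1 amounted to 7.06, 5.59 and 3.12% of the summed level of 12 pan-neuronal genes in OF1-En1+/- mice SW21, SW22 and SWB, against 0.131, 5.00 and 0.305% in OF1 WT animals SW31, SW7 and SWG. It amounted to 4.30, 0.205 and 11.4% in C57-En1+/- mice C5713, C572 and C575, against 3.20, 3.02 and 0.763% in C57 WT animals C5710, C572S and C5743. SW31, SWG, C572 and C5743 were the 4 lowest on this scale too.

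The 5 protein-coding genes closest to the mean log2 level of Gad1, Gad2 and Slc32a1 among 13139 genes over the 12 libraries were Lypd6b (Spearman's rho 0.95), Lypd6 (0.94), Fam43a (0.93), Sdhaf3 (0.92) and Frem3 (0.92). Lypd6 had 5993, 1211 and 2057 in OF1-En1+/- mice SW21, SW22 and SWB, against 165, 1852 and 184 in OF1 WT animals SW31, SW7 and SWG, and the low libraries were again SW31 and SWG. Lhx1, a homeobox factor of midbrain GABAergic precursors that was picked out after its values were seen, had a rho of 0.81 with the same mean. Other regulators of such neurons that were looked at differed: rho was 0.62 for Meis2, 0.37 for Lhx5 and -0.56 for Foxp2.

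Pvalb, on chromosome 15 from 78075314 to 78091149 (ENSMUSG00000005716), was the 1 gene of the 9 whose groups did not overlap in a comparison. It had 96.8, 112 and 91.2 in OF1-En1+/- mice SW21, SW22 and SWB, against 4.72, 11.7 and 59.9 in OF1 WT animals SW31, SW7 and SWG. Every OF1-En1+/- library was above every OF1 WT library, which was also the case for 7.68% of the 18017 tested genes (15.7% did not overlap in either direction). The mean was 99.9 ± 10.5 in OF1-En1+/- and 25.5 ± 30.1 in OF1 WT mice (SD, n = 3 each), a log2 fold change of 1.90 ± 1.47 (SE, edgeR adjusted p = 0.735). In C57-En1+/- mice C5713, C572 and C575 it had 16.0, 172 and 3321, against 57.5, 28.2 and 6.99 in C57 WT animals C5710, C572S and C5743. C575 alone held 83.5% of the normalized counts of the 12 libraries and lay 208-fold above C5713 of its own group. The fitted log2 fold change of 5.25 ± 1.63 (SE) had an unadjusted p of 0.00809 and an adjusted p of 0.550 by edgeR, and an adjusted p of 0.0526 by DESeq2. Without C575 it was 1.62 by edgeR (adjusted p = 0.590) and 1.67 by DESeq2 (adjusted p = 0.517). DESeq2 called Pvalb higher in C57-En1+/- than in C57 WT animals without C5713 (adjusted p = 5.11e-05), C5710 (0.0497) or SW7 (0.0413), and lower in OF1-En1+/- than in C57-En1+/- mice without C5713 (0.00749). These fits were chosen after seeing the data. Over all tested genes, fits that left out 1 library called 0 to 553 and 108 to 484 in these comparisons, with edgeR or DESeq2. Ranges of this kind, here and below, pool both tools and every library left out. They do not give the share of genes called in any single fit.

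Gata2, on chromosome 6 from 88170559 to 88184018 (ENSMUSG00000015053), was the steadiest of the 9. It had 51.1, 305 and 31.5 in OF1-En1+/- mice SW21, SW22 and SWB, against 37.8, 106 and 37.7 in OF1 WT animals SW31, SW7 and SWG. It had 46.3, 206 and 59.2 in C57-En1+/- mice C5713, C572 and C575, against 58.4, 64.1 and 46.7 in C57 WT animals C5710, C572S and C5743. SW22 and C572 stood above the rest. The log2 fold change was 1.07 ± 0.88 (SE) between OF1-En1+/- and OF1 WT mice (edgeR adjusted p = 0.748) and -0.56 without SW22 and C572S. Between C57-En1+/- and C57 WT mice it was 0.88 ± 0.86 (SE, edgeR adjusted p = 0.795).

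Gata3, on chromosome 2 from 9861889 to 9894845 (ENSMUSG00000015619), was detected unevenly, with 76.2% of its normalized counts in SW22. It had 5.28, 1816 and 0 in OF1-En1+/- mice SW21, SW22 and SWB, and 0 in each of the 3 OF1 WT mice. SW22, which held 781 of its 1462 estimated reads, is also the OF1 library with abundant dopaminergic transcripts. Taken over the group, the OF1-En1+/- mean of 607 was at least 441-fold higher than OF1 WT, for a floor of 3 counts over the OF1 WT libraries. Without SW22 the OF1-En1+/- mean was 2.64, from 3 estimated reads in SW21 and 0 in SWB, too few to set a bound. In C57 mice Gata3 had 14.4, 171 and 274 in C57-En1+/- mice C5713, C572 and C575, against 6.53, 93.9 and 0 in C57 WT animals C5710, C572S and C5743. The OF1 WT mean was at least 24.3-fold lower than the C57 WT mean of 33.5, by the same floor. Without C572S the C57 WT mean was 3.27, from 15 estimated reads in C5710 and 0 in C5743, so no bound is given. edgeR gave adjusted p of 0.527 between OF1-En1+/- and OF1 WT, 0.839 between C57-En1+/- and C57 WT and 0.737 between OF1 WT and C57 WT mice.

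With DESeq2, Gata3 passed the threshold as higher in OF1-En1+/- against OF1 WT (adjusted p = 2.72e-11), as did 0.611% of the tested genes in that direction. It was also lower in OF1 WT against C57 WT (adjusted p = 8.63e-09), as were 0.966% of the tested genes, and its genotype difference was smaller in C57 than in OF1 (adjusted p = 4.22e-04), as it was for 0.0999%. In either direction DESeq2 called 1.12, 2.53 and 0.233% of the tested genes in these comparisons. Without SW22 and C572S its adjusted p for Gata3 were 0.695, 0.957 and 0.998. Without SW22 alone the adjusted p were 0.738, 0.0667 and 0.986, and without SWB they were 0.0276, 0.252 and 0.389. DESeq2 gave Gata3 no adjusted p when any of the 3 C57-En1+/- mice was left out.

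Tal1, on chromosome 4 from 114913623 to 114928952 (ENSMUSG00000028717), was the rarest in reads, with 179 estimated reads over the 12 libraries. It had 7.04, 72.1 and 1.13 in OF1-En1+/- mice SW21, SW22 and SWB, against 16.5, 24.6 and 0 in OF1 WT animals SW31, SW7 and SWG. It had 0, 10.5 and 24.0 in C57-En1+/- mice C5713, C572 and C575, against 0, 23.2 and 7.20 in C57 WT animals C5710, C572S and C5743. The highest library was once more SW22, in which Gata2, Gata3 and Tal1 all reached their maximum. Pearson's r over the 12 log2 levels was 0.74 between Gata2 and Gata3, 0.63 between Gata2 and Tal1 and 0.57 between Gata3 and Tal1, and 0.29, 0.53 and 0.20 without the 2 libraries farthest from the median of the first gene named. Differences of this gene between groups were not detectable at these counts (edgeR adjusted p of at least 0.922 in the comparisons of genotype).

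Sox14, on chromosome 9 from 99756159 to 99758223 (ENSMUSG00000053747), and Six3, on chromosome 17 from 85920640 to 85936730 (ENSMUSG00000038805), each peaked in 1 library. Sox14 had 0, 20.9 and 0 in OF1-En1+/- mice SW21, SW22 and SWB, against 0, 108 and 0 in OF1 WT animals SW31, SW7 and SWG. It had 7.99, 16.7 and 42.9 in C57-En1+/- mice C5713, C572 and C575, against 657, 17.7 and 0 in C57 WT animals C5710, C572S and C5743, so that C5710 held 75.4% of its normalized counts. Its log2 fold change was -2.53 ± 2.58 (SE) between OF1-En1+/- and OF1 WT mice (edgeR adjusted p = 0.810) and -3.30 ± 2.45 (SE) between C57-En1+/- and C57 WT animals (edgeR adjusted p = 0.720).

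Six3 had 79.2, 288 and 45.03 in OF1-En1+/- mice SW21, SW22 and SWB, against 11.8, 36.2 and 48.8 in OF1 WT animals SW31, SW7 and SWG. It had 28.8, 0 and 862 in C57-En1+/- mice C5713, C572 and C575, against 298, 74.0 and 10.1 in C57 WT animals C5710, C572S and C5743. C575 was thus the highest library for Six3, for Pvalb and for Gad1. The log2 fold change was 2.05 ± 1.75 (SE) between OF1-En1+/- and OF1 WT mice (edgeR adjusted p = 0.759) and 1.22 ± 1.67 (SE) between C57-En1+/- and C57 WT animals (edgeR adjusted p = 0.863). Its antisense neighbour Six3os1 had a mean normalized count of 249 and was also highest in C575, at 1175.

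**Figure D3:**
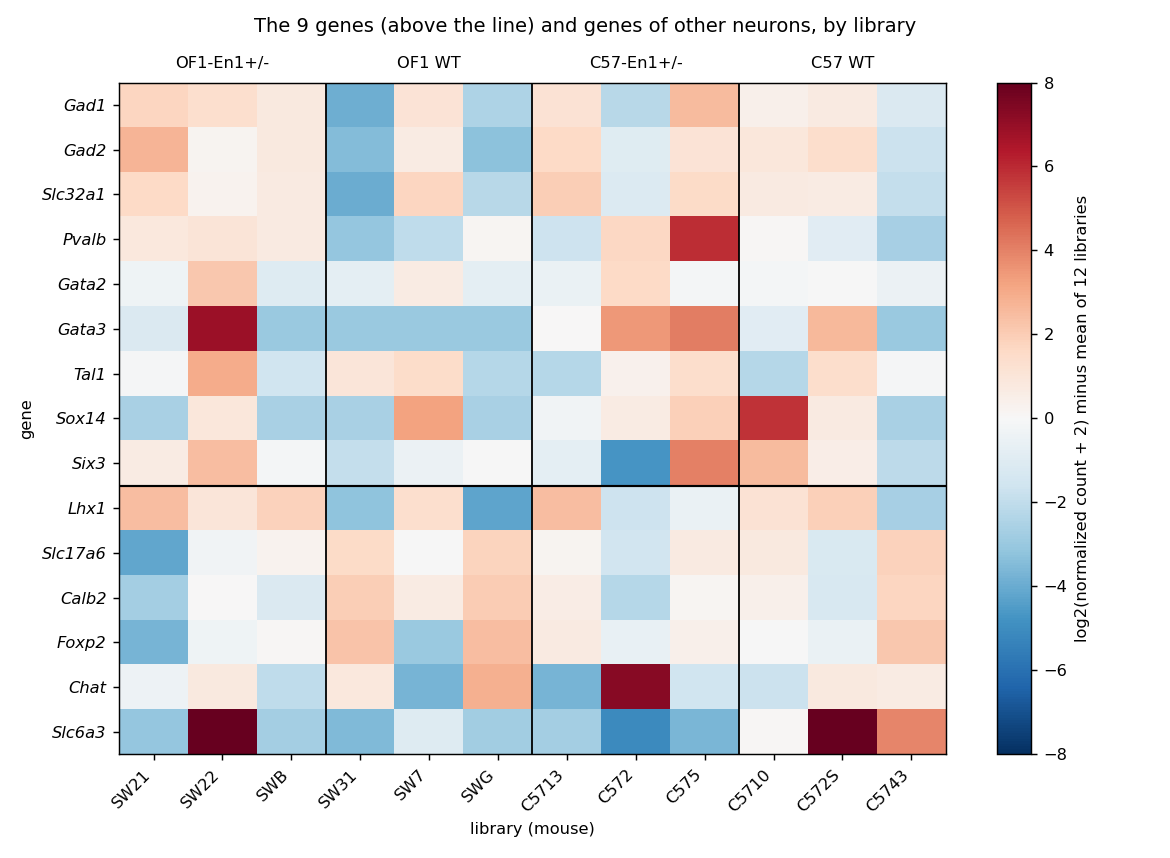
Heat map of the 9 genes and of 6 genes of other neurons (rows) in the 12 libraries (columns, by group), coloured by log2(normalized count + 2) minus the mean of the row, with colours saturating at 8. Gad1, Gad2 and Slc32a1 are low in SW31, SWG, C572 and C5743, Gata3 peaks in SW22 at 1816 normalized counts, Pvalb in C575 at 3321 and Sox14 in C5710 at 657.

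Read over the groups, 8 of the 9 genes had a positive fitted difference between OF1-En1+/- and OF1 WT mice, Sox14 being the exception, and the median log2 fold change was 1.67. Over all tested genes 48.6% were positive and the median was -0.02. edgeR called 0 of the 9 genes and 0% of all tested genes in this comparison. The unadjusted p was under 0.05 for 1 of the 9, Gata3, and for 1654 of all genes. DESeq2 called 1 of the 9, Gata3, against 1.12% of all genes, and limma voom called 0 of the 9 and 0% of all genes. The smallest adjusted p of the 9 was 0.527 by edgeR and 0.0832 by limma voom. Limma voom had 9 of 9 positive with a median of 2.20. It gave log2 fold changes of 3.99 for Gad1 (adjusted p = 0.0832), 4.33 for Gad2 (0.0857) and 3.38 for Slc32a1 (0.237), against 1.67, 2.43 and 0.70 by edgeR. For Gata3, Gata2 and Six3 its values were smaller than those of edgeR. With edgeR, leaving out SW22 and C572S left 6 of the 8 genes still tested (Tal1 fell under the minimum count) positive, with a median of 1.31. Leaving out SW7 gave 9 of 9 with 3.89. Without SW7, DESeq2 called Gad1 (log2 fold change 4.37, adjusted p = 0.00456), Gad2, Slc32a1 and Gata3 higher in OF1-En1+/- mice, among 523 genes called in either direction, while edgeR called 0 of the 9. Without SW22, which held most of Gata3, the median was 0.94 with 6 of 9 positive, and DESeq2 called Sox14 lower in OF1-En1+/- mice. Over all tested genes, fits that left out 1 library called 0 to 523 in this comparison, with edgeR or DESeq2. The summed oligodendrocyte markers were higher in OF1-En1+/- mice without overlap (54449 to 112812, against 20452 to 42103 in OF1 WT mice), and the summed subthalamic and hypothalamic markers were lower without overlap (1553 to 11240, against 16830 to 81774). Their part in these differences was not tested.

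Between C57-En1+/- and C57 WT mice 8 of the 9 were again positive, with Sox14 the exception, and the median was 1.08, against 46.2% positive and a median of -0.05 over all tested genes. Without C575 the median was 0.13 with 6 of 9 positive, and without C5743 it was 0.65 with 7 of 9 positive. It rose to 1.59 without C572 (7 of 9 positive), 1.41 without C5710 (8 of 9), 1.37 without C572S (8 of 9) and 1.26 without C5713 (7 of 9). edgeR called 0 of the 9 and 0% of all genes, DESeq2 called 0 of the 9 and 0.411% of all genes, and limma voom called 0. The unadjusted edgeR p was under 0.05 for 1 of the 9, Pvalb, and for 1544 of all genes, and 0 of the 9 had groups that did not overlap, against 14.3% of all genes. The genotype comparisons of the 2 strains share no libraries, but they come from 1 fit with a shared scaling and a shared estimate of the spread. Gad1, Gad2 and Slc32a1 also varied together, so the 9 genes are not separate observations. In the fit for the dependence on strain (the C57 difference minus the OF1 difference), edgeR called 0 of the 9 and 0% of all genes, with the unadjusted p under 0.05 for 0 of the 9 and for 1274 of all genes. DESeq2 called Gata3 of the 9 there, against 0.233% of all genes, and limma voom 0. The median of the 9 was -0.73, and ran from -2.80 without SW7 to 0.31 without SW22. Without SW7 DESeq2 called Gata3 and Gad2 of the 9. Over all tested genes, fits that left out 1 library called 0 to 125 here, with edgeR or DESeq2. Gad2 had -2.20 ± 1.72 (SE, edgeR adjusted p = 0.817) and Pvalb 3.35 ± 2.03 (SE, edgeR adjusted p = 0.764).

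Between OF1 WT and C57 WT mice 3 of the 9 were positive with a median log2 fold change of -0.53, and between OF1-En1+/- and C57-En1+/- mice 4 were positive with a median of -0.14. Single libraries moved both: without SW7, 1 of the 9 was positive between OF1 WT and C57 WT mice with a median of -3.10, and DESeq2 called Gata3, Gad2 and Slc32a1 lower in OF1 WT mice, among 496 genes called in either direction, while without SW31 5 were positive with a median of 0.017. Between OF1-En1+/- and C57-En1+/- mice the median was -1.55 with 1 positive without SW22, when DESeq2 called Sox14, and 0.82 with 7 positive without C575. In that comparison fits that left out 1 library called 108 to 484 of all tested genes, with edgeR or DESeq2. edgeR called 0 of the 9 in either, against 1.03 and 0.927% of all tested genes. The unadjusted p was under 0.05 for 0 and for 1 of the 9 (Pvalb), and for 1554 and 1442 of all genes. DESeq2 called Gata3 in the first and 0 of the 9 in the second, against 2.53 and 2.46% of all genes, and limma voom called 0 of the 9 in either, against 1.28 and 0.777%. In both, 0 of the 9 had groups that did not overlap, against 14.8 and 13.2% of all genes. Gad1 had -0.53 ± 1.24 (SE, edgeR adjusted p = 0.955) between OF1 WT and C57 WT and -0.14 ± 1.23 (SE, edgeR adjusted p = 0.994) between OF1-En1+/- and C57-En1+/- mice. 

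**Figure D4:**
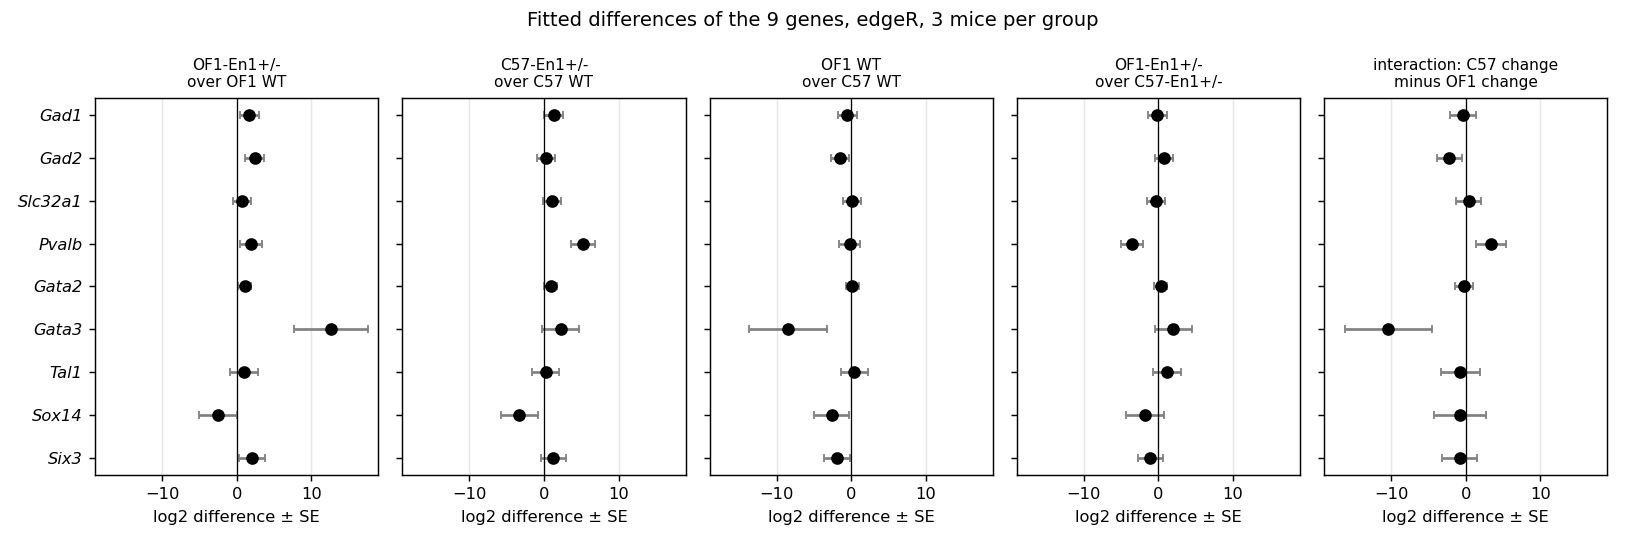
Fitted log2 difference of each of the 9 genes (points) with its standard error (bars) from edgeR, in the 4 comparisons of groups and in the interaction of genotype and strain. In the 2 comparisons of genotype 8 of the 9 points lie right of 0. The widest bars are those of Gata3 in the panels that include the 3 OF1 WT mice, in which it was at 0.

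The spread within groups was large for these genes. The within-group SD of log2(normalized count + 2) was 1.85 for Gad1, 1.71 for Gad2, 1.86 for Slc32a1, 2.17 for Pvalb, 1.10 for Gata2, 3.16 for Gata3, 2.03 for Tal1, 2.92 for Sox14 and 2.62 for Six3, against a median of 0.51 over all tested genes. Gata2 was thus above 80.3% of all tested genes and Gata3 above 99.6%. The groups took 35.2% of the variance of Gad1 and 43.7% of that of Gad2, but 8.78% of that of Gata2 and 2.60% of that of Tal1, against a median of 31.2% over all tested genes.

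The estimated reads of Gad1 fell on 2 main transcripts. The full-length coding transcript Gad1-201 took 41.7, 56.0 and 50.5% in OF1-En1+/- mice SW21, SW22 and SWB, against 64.8, 44.9 and 69.1% in OF1 WT animals SW31, SW7 and SWG. It took 34.1, 53.0 and 56.0% in C57-En1+/- mice C5713, C572 and C575, against 57.1, 41.6 and 64.7% in C57 WT animals C5710, C572S and C5743. Nearly all other reads (29.6 to 65.5%) were assigned to Gad1-206, which starts within the gene at 70396721 and has no defined coding sequence in the annotation. The shares overlapped between En1+/- and WT mice of both strains. Gad2 had 98.7 to 100% of its reads on Gad2-201 and Slc32a1 all of them on its 1 transcript. Gata2 reads were split between Gata2-202 and Gata2-201 in shares that ran from 0 to 100% of a library: Gata2-202 took all of them in SW31 and SW7 and 0% in C5743, where all 227 were on Gata2-201.

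Other genes of GABA handling did not follow the 3 synthesis genes. Of 12 genes of GABA uptake, breakdown and chloride balance, 11 were tested and edgeR called 0 in each of the 5 comparisons. Their median log2 fold change was -0.05 between OF1-En1+/- and OF1 WT mice and -0.17 between C57-En1+/- and C57 WT mice. The most abundant in TPM included Abat, which breaks GABA down, and Glul, the glutamine synthetase of astrocytes. Slc12a5, the neuronal chloride exporter that keeps GABA inhibitory and which was picked out after its values were seen, had 3405, 2667 and 2907 in OF1-En1+/- mice SW21, SW22 and SWB, against 5314, 4791 and 5722 in OF1 WT animals SW31, SW7 and SWG. Its groups did not overlap, as was the case for 15.7% of all tested genes. The log2 fold change of -0.82 ± 0.19 (SE) had an adjusted p of 0.447 by edgeR and of 0.0147 by DESeq2, which called 1.12% of all tested genes.

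Of 15 other regulators of midbrain GABAergic neurons, 13 were tested, and edgeR called 0 in each comparison. Their median log2 fold change was 0.59 between OF1-En1+/- and OF1 WT mice and 0.58 between C57-En1+/- and C57 WT mice. Foxp2, Lmo4 and Meis2 were the most abundant. Foxp2 had 13764 and 15877 in OF1 WT animals SW31 and SWG and 12597 in C57 WT mouse C5743, the libraries with the most Slc17a6, and at most 4557 elsewhere. Lhx1 had 1762, 632 and 1146 in OF1-En1+/- mice SW21, SW22 and SWB, against 33.0, 821 and 15.5 in OF1 WT animals SW31, SW7 and SWG, low in SW31 and SWG as Gad1 was (edgeR adjusted p = 0.735). In C575, the library highest in Gad1, Lhx1 was at 220.

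Of 16 markers of fast-spiking and other inhibitory neurons, all tested, edgeR called 0 in each comparison. The most abundant were Calb2, Npy and Sst. Calb2 averaged 5878 ± 4735 in OF1-En1+/- and 34567 ± 15189 in OF1 WT mice (SD, n = 3 each), with a log2 fold change of -2.56 ± 0.94 (SE, edgeR adjusted p = 0.493). Its groups did not overlap, as was the case for 15.7% of all tested genes. Npy, a peptide of some inhibitory neurons, was highest in C575 at 26019 and in C5710 at 18599, the libraries highest in Pvalb and in Sox14. DESeq2 called 1 of the 16 in each genotype comparison, against 1.12% of all genes in OF1 and 0.411% in C57 mice: Cck between OF1-En1+/- and OF1 WT mice (adjusted p = 0.0186) and Nefh between C57-En1+/- and C57 WT animals (adjusted p = 0.0293), both higher in En1+/- mice, and both were picked out after their values were seen. Nefh was at 12600.3 in C572 and at 825 to 2363 in the other C57-En1+/- libraries, and Cck was at 14666 in SWB.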

How the data were processed

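RNA of laser-microdissected SNpc from 12 mice was amplified by SMART-Seq and tagged with Nextera XT, neither of which keeps the strand. Salmon was run by the authors on GRCm39 transcripts, and they deposited, for each library, estimated counts of reads and TPM per transcript. Transcripts were matched by identifier to GENCODE release M39 (139555 of 140790, 99.1%), and estimated counts were summed over the transcripts of each gene and rounded to whole numbers for testing. TMM scaling and edgeR 4.0.16 (R 4.3.3; robust quasi-likelihood fit, 1 mean per group, all 12 libraries) gave the tests, with Benjamini-Hochberg adjustment over the 18017 genes that averaged 10 or more normalized counts. The SE is the log2 fold change over the root of the F statistic. Levels were set on a log2 scale after adding 2. DESeq2 1.42.0 and limma 3.58.1 (voom with quality weights) were alternatives, with others given at the end. The test was tested on simulated data. Tables and figures used Python 3.11.15, pandas 2.3.3, numpy 2.4.6 and matplotlib 3.10.9.

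The 9 genes, the other lists and the tests were chosen with earlier results of these data known. The text gives the 9 genes in every comparison, the 5 genes most like the mean of Gad1, Gad2 and Slc32a1, genes that overlap one of the 9, the 3 genes of highest mean TPM of each other list in which edgeR called 0, and markers that moved with one of the 9; the rest are said to have been picked after their values were seen. Libraries ranged in depth between 13538864 and 168741283 estimated reads, and floors cover counting error only. Every C57 WT library (61433970 to 168741283) was deeper than every library of the other groups (at most 37754338). In comparisons with C57 WT, depth and group therefore cannot be told apart in the detection of rare genes. Libraries within a group all differed beyond sampling noise. The smallest p that exact permutation of 3 against 3 mice allows is 0.1, so such a test was not used. Per the labels each library is a separate mouse. A few genes that these rules name are not reported here.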

Additional observations from a re-analysis of the deposited data

How the results depend on the processing

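No paired analysis was possible because the labels give the groups no shared replicate numbers. The alternatives with DESeq2 that leave out libraries were chosen after seeing the data. Over all tested genes edgeR called 0 between OF1-En1+/- and OF1 WT mice, 0 between C57-En1+/- and C57 WT, 185 between OF1 WT and C57 WT, 167 between OF1-En1+/- and C57-En1+/- and 0 in the interaction. DESeq2 called 202, 74, 456, 444 and 42, and 360, 40, 328, 435 and 34 without SW22 and C572S; edgeR without these 2 libraries called 1 between OF1-En1+/- and OF1 WT, 106 between OF1 WT and C57 WT and 108 between OF1-En1+/- and C57-En1+/-. In the 2 strain comparisons the count was 114 and 109 with the 6 libraries compared and 67 and 51 with protein-coding genes. Leaving out each library in turn, with edgeR or DESeq2, gave 0 to 523, 0 to 553, 127 to 560, 108 to 484 and 0 to 125. Of the 5 genes most like Gad1, Gad2 and Slc32a1, 3 were shared with Pearson's r and 1 with TPM; for Gata3 these were 0 and 1. For the 9 genes in 5 comparisons, 16 of 45 log2 differences kept their sign in every fit that left out 1 library. The others ranged as follows. Between OF1-En1+/- and OF1 WT: Gata2 -0.57 to 1.80, Sox14 -21.11 to 6.11 and Tal1 -1.77 to 1.76. Between C57-En1+/- and C57 WT: Gad2 -0.28 to 0.84, Gata2 -0.078 to 1.29, Six3 -3.18 to 2.86, Sox14 -4.16 to 1.41 and Tal1 -0.88 to 1.73. Between OF1 WT and C57 WT: Gad1 -3.20 to 0.077, Gata2 -0.58 to 0.43, Pvalb -1.83 to 0.62, Slc32a1 -3.10 to 0.70, Sox14 -11.28 to 2.11 and Tal1 -0.36 to 2.00. Between OF1-En1+/- and C57-En1+/-: Gad1 -0.68 to 1.02, Gad2 -0.41 to 1.26, Gata2 -1.34 to 1.30, Gata3 -5.96 to 2.71, Pvalb -4.12 to 0.078, Six3 -2.26 to 3.29, Slc32a1 -0.79 to 0.26 and Tal1 -1.55 to 2.33. In the interaction: Gad1 -3.06 to 0.19, Gata2 -1.14 to 1.51, Pvalb -0.33 to 4.16, Six3 -5.25 to 0.77, Slc32a1 -2.82 to 0.99, Sox14 -9.42 to 17.81 and Tal1 -1.83 to 2.00. Signs also turned without SW22 and C572S: by edgeR for Gata2 (-0.56 between OF1-En1+/- and OF1 WT, -1.33 between OF1-En1+/- and C57-En1+/-, 1.55 in the interaction), Gata3 (-5.96 between OF1-En1+/- and C57-En1+/-, 0.84 in the interaction), Six3 (0.041) and Sox14 (4.79) in the interaction, and by DESeq2 for Gata2 (-0.56, -1.34 and 1.61), Gata3 (-5.91 and 2.35), Sox14 (17.24) and Gad1 (0.0085) in the same comparisons. With limma voom they turned for Gad1 (0.47), Gata3 (-1.86) and Six3 (1.27) between OF1-En1+/- and C57-En1+/-, for Gata2 (-0.36), Pvalb (0.31) and Slc32a1 (-2.05) between OF1 WT and C57 WT, for Six3 (-0.36) and Sox14 (1.202) between C57-En1+/- and C57 WT, for Sox14 (1.06) between OF1-En1+/- and OF1 WT, and for Gata3 (0.49), Slc32a1 (-1.84) and Sox14 (0.14) in the interaction; with offsets for transcript length, for Gata2 in the interaction (0.18). The cause was not tested. Reads limit Gata3, Sox14 and Tal1 most.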

Other observations

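The 5 protein-coding genes whose level over the 12 libraries was most like that of Gata3 were Slc40a1 (Spearman's rho 0.94), Slc44a5 (0.90), Bora (0.89), Dock10 (0.87) and Ptprr (0.87). Slc40a1 encodes the iron exporter ferroportin. These are descriptions over 12 libraries that share their scaling, and 0 of the 5 were again among the closest when Pearson's r was used.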
